A study of Sus scrofa with 120 samples.

Results

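The response of pig chondrocytes to interleukin-1 (IL-1) at 9 h was read from 8 of the 120 libraries of the series. These were the 4 libraries titled as IL-1 treatment at 9 h and the 4 titled as DMSO vehicle control at 9 h in the experiment on the channel TRPV4, chosen by their titles alone. Gene expression was measured by RNA sequencing after removal of ribosomal RNA and priming with random hexamers. The cells were primary chondrocytes from pig (Sus scrofa) femoral cartilage, cast in 2% agarose to form engineered cartilage constructs. IL-1 was given at 1 ng/mL, and the treatment protocol names IL-1a. Vehicle controls received DMSO at 1:1000 in medium and were left free swelling, and the protocol does not say whether the IL-1 constructs received DMSO, while the column names of the IL-1 libraries in the deposited table hold the word dmso. Every group was in medium with fetal bovine serum, and the labels name no genetic change in these groups. Whether the 4 constructs in each group derive from different pigs is not said in the labels. The p-values therefore measure only the spread among libraries, which may be technical. That spread was pooled over all groups in a model, not over these 8 libraries alone. Separate IL-1 and DMSO libraries at 3 h (4 and 4) and 4 libraries of constructs treated with GSK101 at 1 nM, an agonist of TRPV4, and taken at 9 h served as comparisons. The 9 h model also held constructs given the TRPV4 antagonist GSK205 (10 uM), physiologic loading (10% at 1 Hz for 3 h) or both, with 4 libraries each. The models with 3 h libraries also held these groups and GSK101 at 3 h.

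IL-1 binds the receptor chain IL1R1 together with its partner IL1RAP. The adaptor MYD88 and the IRAK kinases then pass the signal to NF-kB and the MAP kinases, which switch on transcription. In cartilage IL-1 is used as a model of joint inflammation, and it is known for raising matrix-degrading enzymes, nitric oxide and prostaglandins and for lowering proteoglycan synthesis.

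Total counts were 36091153 to 63598533 in the IL-1 libraries and 24190041 to 35352928 in the DMSO libraries at 9 h, so depth moved with the group. The share of even numbers among counts of 1 to 20 was 66.62 to 68.71% with IL-1 and 69.7 to 72.4% with DMSO, again without overlap, and its part in the results was not tested. The shares of small RNAs and of ribosomal RNA overlapped between the groups. Replicates lay close together, with a common biological coefficient of variation of 0.0874 in the model of all 24 libraries at 9 h. Levels are given in CPM, counts scaled to a library total of 1000000, after adjustment of the totals with edgeR's TMM factors. They compare libraries for 1 gene and not genes with each other, since no gene length was used. Adjusted p-values come from the quasi-likelihood test of edgeR, with the Benjamini-Hochberg method over all genes tested. A gene was called when this was under 0.05, and log2 fold changes carry their SE after ±. Fewer cells and less RNA per cell cannot be told apart in such bulk samples.

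At 9 h, 10764 of 16540 genes tested were called (65.1%). Of these, 5061 were higher with IL-1 (30.6% of genes tested) and 5703 lower (34.5%). Changes of at least 4-fold were called upward for 744 genes (4.5%) and downward for 478 (2.89%). The split depended on the scaling. With library totals alone, a scaling tried after the data were seen, 2066 of the 16540 genes were higher and 10345 lower. The median log2 fold change of all genes moved by -0.53. Counts of list members on the TMM scale are to be read against 30.6% and 34.5%. Those on total counts are to be read against 2066 and 10345 of 16540 genes. Fold changes below are relative to the TMM scale, on which the median over all genes was -0.067, except ratios and bounds of genes with few counts, which are per library total. Between IL-1 and DMSO at 9 h, such a ratio is lower for a rise and higher for a fall than on the TMM scale, by about 0.53 in log2. A log2 rise smaller than about 0.53 therefore becomes a fall on total counts.

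The 10 genes with most counts in the IL-1 libraries took 20.67 to 20.87% of all counts there and 13.17 to 14.43% in the DMSO libraries. The largest gain was on the line named HPS5, which went from 0.413% to 4.24% of counts. RefSeq places HPS5 (ENSSSCG00000037358) on chromosome 2 from 40906785 to 40938847 in Sscrofa11.1, and the identifiers of this line also tie it to SAA2 and SAA3, which encode serum amyloid A acute phase proteins. Its reads cannot be assigned to 1 of the 3 genes. SOD2, the mitochondrial superoxide dismutase, went from 0.125% to 2.99% of counts. The line MMP3, which also covers MMP1, went from 0.0179% to 2.03%. COL2A1, the main collagen of cartilage, fell from 5.05% to 3.14% of counts and ACAN, its main proteoglycan, from 2.05% to 1.25%.

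**Figure D1:**
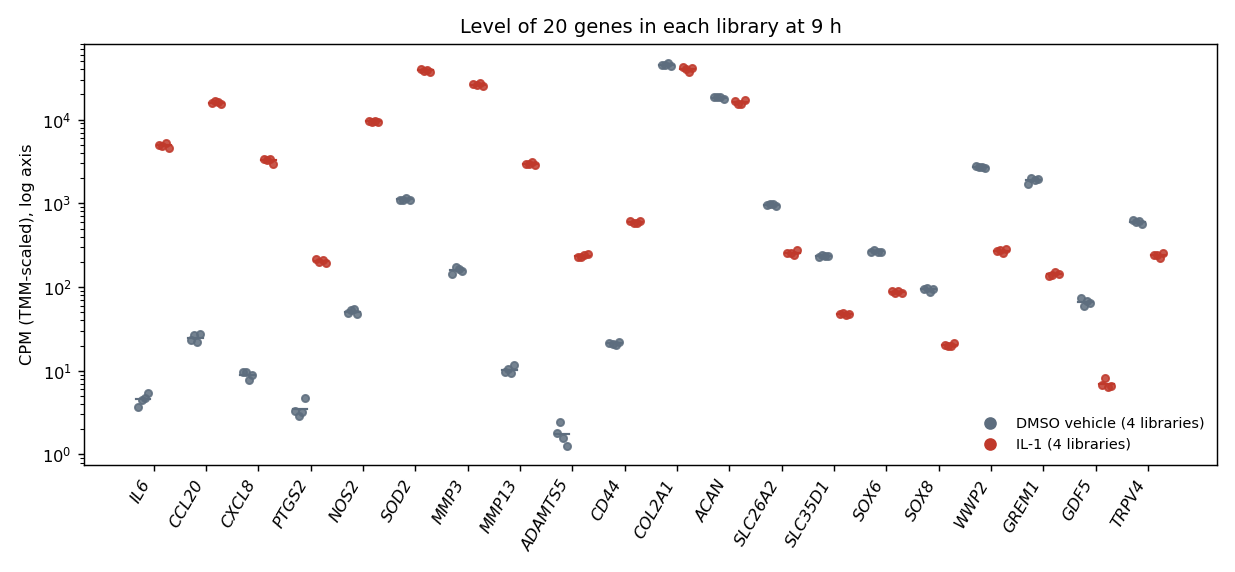
Level of 20 genes in each of the 4 DMSO libraries (grey) and 4 IL-1 libraries (red) at 9 h, in CPM of TMM-scaled totals on a log axis; points are libraries, short lines are group means, and heights are not comparable between genes. Groups are apart for all 20 genes, by the least for COL2A1 and ACAN.

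IL6, a cytokine of the acute phase response, stood first among the genes that rose. It was at 4952, 4863, 5211 and 4646 CPM in the IL-1 libraries and 3.71, 4.51, 4.70 and 5.37 CPM in the DMSO libraries. All 4 IL-1 libraries were far above all DMSO libraries. The log2 fold change was 10.07 ± 0.14, with adjusted p = 4.2e-33 by edgeR's quasi-likelihood test. The other 11 genes of the largest rises with at least 1 CPM were CSF2, XIRP1, CERS3, CCL20, MMP12, ARG1, ATP12A, CXCL8, RND1, BATF3 and TNF. The rule that picked these 12 genes asked for groups that do not overlap. Their lack of overlap therefore adds no support, here or where they are named again below. XIRP1, an actin-binding protein best known from muscle, was at 918, 831, 844 and 919.6 CPM with IL-1 and 1.31, 1.22, 1.75 and 0.953 CPM with DMSO. RND1, a small GTP-binding protein, was at 4471, 4375, 4539.6 and 4289.8 CPM and 13.3, 10.97, 15.5 and 9.75 CPM. The log2 fold changes of XIRP1 and RND1 were 9.41 ± 0.16 and 8.49 ± 0.12. ATP12A, a proton-potassium pump, rose from 0.225 ± 0.0888 to 112 ± 4.68 CPM (SD, n = 4), and BATF3, a leucine zipper transcription factor, from 0.586 ± 0.218 to 206 ± 7.05 CPM. CERS3, a ceramide synthase, had no count in any DMSO library and 72, 95, 65 and 124 counts with IL-1, at least 70.2-fold higher per library total against a floor of 3 counts over the group.

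The largest falls among genes with at least 1 CPM were those of LPAR4, PI15, CDCA7, PRR33, ssc-let-7c, MIR140, ssc-mir-214, FIBIN, TMEM100, TNS2, CTXN3 and RAD54B. They too were picked only among genes whose groups do not overlap, which holds also where they are named again below. LPAR4, a receptor for lysophosphatidic acid, had 0, 2, 1 and 0 counts in the IL-1 libraries against 78, 92, 62 and 72 with DMSO. The ratio per library total was 171, with a counting interval of 58.0 to 835 (95%). FIBIN, a secreted protein, was at 20.3, 20.4, 20.4 and 19.2 CPM with IL-1 and 349, 346, 398 and 388 CPM with DMSO. TNS2, a focal adhesion protein, was at 37.6, 39.5, 31.4 and 39.7 CPM and 645, 694, 691 and 621 CPM. Both were lower in every IL-1 library, with log2 fold changes of -4.21 ± 0.060 and -4.16 ± 0.10. CDCA7, a MYC-responsive cell cycle gene, fell from 23.9 ± 2.08 to 0.646 ± 0.158 CPM. The line RAD54B also covers FSBP.

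The receptor genes changed in opposite directions. IL1R1, the signalling receptor, was at 12.5, 11.9, 12.4 and 10.999 CPM with IL-1 and 26.1, 22.9, 23.4 and 27.9 CPM with DMSO, lower in every IL-1 library (log2 -1.08 ± 0.084, adjusted p = 6.51e-13, edgeR). Its partner IL1RAP was at 51.7, 49.4, 48.4 and 44.5 CPM against 13.3, 15.7, 17.9 and 16.7 CPM, higher in every IL-1 library (log2 1.61 ± 0.084). IRAK3, which restrains the pathway, rose from 36.2 ± 1.96 to 121 ± 7.42 CPM, and the decoy receptor IL1R2 from 0.251 ± 0.126 to 1.23 ± 0.237 CPM. SIGIRR, another inhibitor, fell from 1.15 ± 0.439 to 0.292 ± 0.181 CPM. IL1A itself rose to 1.38 ± 0.216 CPM from 0.0727 ± 0.0890 CPM and the related cytokine IL18 from 2.68 ± 0.619 to 18.0 ± 1.79 CPM. Among 18 tested of the 22 listed receptor and proximal signalling genes, 8 rose and 5 fell, against 30.6% and 34.5% of all genes. The median log2 fold change was 0.16 against -0.067 over all genes. On total counts 7 were higher and 9 lower. IL1B was too low to be tested, and IL1RN has no line in the table.

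Nearly every NF-kB gene tested rose. Of 25 tested, 24 rose and 1 fell (IKBKG, log2 -0.39), against 30.6% and 34.5% of all genes, and the median log2 fold change was 2.28. On total counts 22 were higher and 1 lower. NFKBIA, the inhibitor that NF-kB induces against itself, was at 1262, 1259, 1266 and 1206 CPM with IL-1 and 55.1, 50.8, 48.6 and 54.4 CPM with DMSO. ZC3H12A, the RNase regnase-1 that cleaves cytokine mRNAs, was at 545, 534, 513 and 528 CPM and 13.2, 13.9, 13.8 and 13.8 CPM. The groups were wide apart for both, with log2 fold changes of 4.58 ± 0.071 and 5.28 ± 0.066. TNFAIP3, the deubiquitinase A20, rose from 14.7 ± 1.28 to 222 ± 2.33 CPM and NFKBIZ, a nuclear co-regulator, from 51.9 ± 1.05 to 1162 ± 24.2 CPM. The subunits rose too: NFKB1 from 66.0 ± 2.50 to 591 ± 12.5 CPM, NFKB2 from 67.3 ± 1.86 to 611 ± 6.84 CPM and RELB from 39.2 ± 2.69 to 183 ± 5.54 CPM. TNIP3, a partner of A20, had 2 counts over the DMSO group and 169 over the IL-1 group, a ratio of 50.0 per library total with a counting interval of 13.6 to 416.

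Of 25 cytokine genes and receptors of the IL-6 and TNF families tested, 23 rose and none fell, against 30.6% and 34.5% of all genes. The median log2 fold change was 2.50, also with the 2 genes that had no count in the DMSO group set at their bound. The 2 not called were IL6R and TNFSF13B, and on total counts 21 of the list were higher and 1 lower. Without a filter on low counts, 23 of 31 rose and none fell, with a median log2 fold change of 2.07. IL6R was called upward with DESeq2 (adjusted p = 0.045), with its size factors in edgeR (adjusted p = 0.0496) and with the compared groups alone (adjusted p = 0.0394, edgeR), and downward on total counts (log2 -0.37). TNF was at 75.9, 76.4, 76.9 and 73.8 CPM with IL-1 and 0.182, 0.174, 0.328 and 0.286 CPM with DMSO, and LIF, an IL-6 family cytokine, was at 239, 214, 219 and 223 CPM and 2.11, 3.32, 2.88 and 2.48 CPM. Every IL-1 library was above every DMSO library for both (log2 8.30 ± 0.20 and 6.35 ± 0.11). CSF1, a growth factor of macrophages, rose from 60.9 ± 3.86 to 1636 ± 89.5 CPM. CSF2, a growth factor of granulocytes and macrophages, had no count in the DMSO libraries and 85, 113, 78 and 157 with IL-1, at least 85.4-fold higher per library total. The receptor OSMR rose from 59.3 ± 1.15 to 1144 ± 23.5 CPM, the transcription factor STAT3 from 236 ± 5.67 to 1339 ± 24.9 CPM, and the feedback inhibitor SOCS3 from 22.03 ± 1.21 to 216 ± 3.78 CPM. TNFRSF11B, the decoy receptor osteoprotegerin, rose from 108 ± 3.56 to 281 ± 14.4 CPM.

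All 13 chemokine genes tested were higher with IL-1, against 30.6% of all genes, with a median log2 fold change of 5.06. On total counts 12 remained called upward, and CXCL12 was not called (log2 0.41, adjusted p = 0.0666, edgeR). A gene with enough counts in the IL-1 group alone passes the filter on low counts. Without a filter, 14 of 24 chemokine genes were higher and 1 lower, with a median log2 fold change of 3.51. CCL20, which attracts lymphocytes and dendritic cells, was at 15738, 16532, 16121 and 15208 CPM with IL-1 and 23.0, 26.7, 22.3 and 27.1 CPM with DMSO. CXCL8, which attracts neutrophils, was at 3411, 3282, 3375 and 2954 CPM and 9.56, 9.65, 7.83 and 8.90 CPM. Both groups were tight and far apart, with log2 fold changes of 9.32 ± 0.13 and 8.50 ± 0.13. CXCL2 rose from 6.60 ± 0.506 to 1429.9 ± 44.6 CPM and the pig neutrophil chemoattractant AMCF-II from 6.39 ± 1.07 to 285 ± 30.4 CPM. Among the CC chemokines, CCL2 rose from 0.920 ± 0.158 to 31.4 ± 2.20 CPM, CCL4 from 5.51 ± 0.117 to 260.3 ± 13.4 CPM and CCL5 from 14.2 ± 1.03 to 188 ± 3.82 CPM. A further 11 listed chemokines, CXCL9, CXCL11 and CCL22 among them, were too low to be tested, and 5 have no line in the table.

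Most immediate early genes were higher with IL-1 at 9 h. Of 29 tested, 25 rose and 2 fell, against 30.6% and 34.5% of all genes (19 and 8 on total counts). CEBPD, a transcription factor of the acute phase, was at 1967, 1981, 1921 and 1970.0 CPM with IL-1 and 123, 122, 118 and 123 CPM with DMSO, and JUNB, an AP-1 subunit, at 593, 550.3, 549.9 and 549.5 CPM and 51.6, 48.2, 43.4 and 54.9 CPM. The groups did not overlap for either. FOS rose less, from 92.6 ± 9.84 to 243 ± 9.64 CPM. The falls were those of MYC, from 52.9 ± 3.16 to 18.0 ± 1.2003 CPM, and NR4A2 (log2 -0.18, adjusted p = 0.0469 by edgeR and 0.129 by DESeq2). On total counts 19 of the 29 were higher and 8 lower.

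In the prostaglandin pathway the largest rise was that of PTGS2. It encodes the inducible cyclooxygenase and was at 215, 197, 212 and 193 CPM with IL-1 and 3.27, 2.92, 3.24 and 4.67 CPM with DMSO. PTGES, the inducible prostaglandin E synthase, was at 649, 638, 625 and 595 CPM and 29.6, 29.1, 29.9 and 30.8 CPM. The IL-1 libraries were above all DMSO libraries for both, with log2 fold changes of 5.86 ± 0.10 and 4.39 ± 0.080. The E2 receptor PTGER4 rose from 1.41 ± 0.245 to 32.5 ± 1.21 CPM, while PTGER2 did not pass the test (2.07 and 1.77 CPM). PTGER2 was called lower on total counts (log2 -0.76). PTGIS, the prostacyclin synthase, fell from 93.9 ± 2.43 to 24.9 ± 0.552 CPM. Of 16 genes tested in this list, 8 rose and 3 fell, against 30.6% and 34.5% of all genes. On total counts 7 were higher and 7 lower.

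NOS2, the inducible nitric oxide synthase, was at 9729, 9382, 9528 and 9486 CPM with IL-1 and 48.5, 52.5, 54.8 and 47.7 CPM with DMSO. SLC7A2, which imports its substrate arginine, was at 7804, 7614, 7621 and 7554 CPM and 205, 225, 233 and 213 CPM. ARG1, an arginase that uses the same substrate, was at 488, 463, 458 and 450.0 CPM and 1.16, 1.22, 0.728 and 0.667 CPM. These 3 genes were higher in every IL-1 library, with log2 fold changes of 7.55 ± 0.092, 5.13 ± 0.071 and 8.91 ± 0.12. GCH1, the first enzyme of the cofactor tetrahydrobiopterin, rose from 8.08 ± 1.23 to 55.0 ± 1.62 CPM. DDAH1, which breaks down methylated arginines that inhibit nitric oxide synthases, fell from 29.5 ± 1.76 to 8.88 ± 1.62 CPM. ASS1, which takes part in regenerating arginine, fell by 0.39 on the log2 scale. In all, 10 of 16 tested genes rose and 6 fell, against 30.6% and 34.5% of all genes. On total counts 6 were higher and 7 lower.

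Acute phase, complement and innate receptor genes mostly rose, 22 of 30 tested, and 5 fell, against 30.6% and 34.5% of all genes (18 and 8 on total counts). The line HPS5 with SAA2 and SAA3 was at 54573, 55299, 56042 and 52860.2 CPM with IL-1 and 3734, 3599, 3891 and 3534 CPM with DMSO, with no overlap (log2 3.89 ± 0.094). PTX3, a pattern recognition pentraxin, rose from 1.24 ± 0.238 to 72.0 ± 6.41 CPM. The calcium-binding alarmins S100A8 and S100A9 rose to 9.73 ± 1.64 and 83.1 ± 4.59 CPM from 0.406 ± 0.249 and 2.13 ± 0.670 CPM. C3, the central complement component, was at 1848, 1857, 1902 and 1886 CPM and 169.9, 173, 179.6 and 164 CPM, higher in every IL-1 library. Factor B (CFB) rose from 5.02 ± 0.636 to 144 ± 2.97 CPM and the lipopeptide receptor TLR2 from 13.1 ± 0.508 to 199 ± 7.73 CPM. LCN2, an iron-siderophore binding protein, differed little (1189 ± 20.0 and 918 ± 18.3 CPM, log2 0.37), and its direction turned on total counts (log2 -0.16). SLPI, TLR1, TLR6, NOD1 and CD59 fell. The calls of TLR6 and NOD1 were near the threshold (adjusted p = 0.0491 and 0.0301, edgeR) and reached 0.139 and 0.0765 when 1 library was left out, and that of SLPI was lost without DMSO replicate 3 (adjusted p = 0.0681, edgeR).

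Of 16 adhesion and antigen presentation genes tested, 12 rose and 1 fell (11 and 3 on total counts). ICAM1, an adhesion molecule for leukocytes, was at 2604, 2637, 2553 and 2585 CPM with IL-1 and 38.8, 41.8, 40.7 and 40.8 CPM with DMSO, wide apart (log2 6.00 ± 0.086). VCAM1 rose from 30.2 ± 1.33 to 272 ± 13.2 CPM, the peptide transporter TAP1 from 25.5 ± 3.72 to 164 ± 1.49 CPM and CD274, the ligand of PD-1, from 0.953 ± 0.184 to 57.0 ± 2.64 CPM. CIITA, the class II transactivator, fell from 11.3 ± 1.48 to 4.36 ± 0.407 CPM. Of 26 interferon-stimulated genes tested, 8 rose and 4 fell, against 30.6% and 34.5% of all genes. IRF1, a transcription factor of the interferon response, had the largest rise, at 121, 132, 126 and 132 CPM with IL-1 and 12.6, 13.3, 14.5 and 11.4 CPM with DMSO, all IL-1 libraries being higher. MX1 did not pass the test (24.6 ± 3.07 and 23.2 ± 4.23 CPM), nor did RSAD2, GBP1 or OAS1. MX1, RSAD2 and GBP1 were called lower on total counts (log2 -0.45, -0.73 and -0.56). RSAD2 was also called lower without DMSO replicate 4 (adjusted p = 0.0455, edgeR). On total counts 3 of the 26 were higher and 12 lower, against 2066 and 10345 of 16540 genes.

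**Figure D2:**
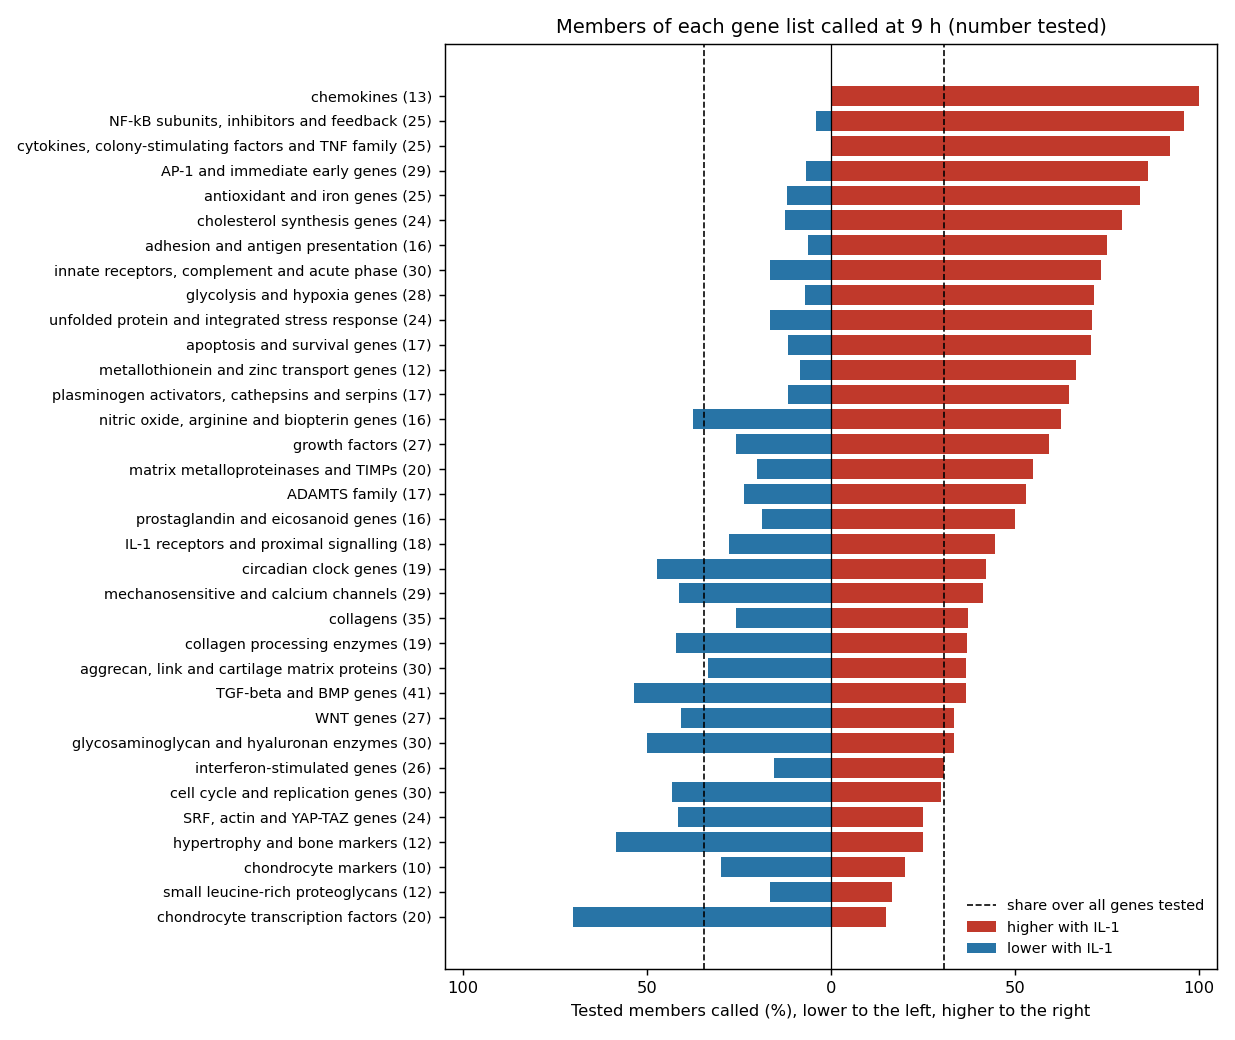
Share of the tested members of each gene list (with at least 10 tested) called higher (red, right) or lower (blue, left) with IL-1 at 9 h, in percent, with dashed lines at the shares over all genes (30.6% and 34.5%). Chemokines (13 of 13 higher) and chondrocyte transcription factors (14 of 20 lower) stand at the ends.

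Matrix-degrading enzymes included some of the largest rises. MMP13, the collagenase that cleaves type II collagen, was at 2916, 2984, 3147 and 2852 CPM with IL-1 and 9.56, 10.5, 9.47 and 11.7 CPM with DMSO. The line MMP3, with the stromelysin MMP3 and the collagenase MMP1, was at 26586, 25586, 27390.0 and 25463 CPM and 145, 172, 164 and 156 CPM. MMP12, macrophage elastase, was at 1558, 1514, 1473 and 1511 CPM and 3.27, 2.87, 2.51 and 3.21 CPM. No IL-1 library came near a DMSO library for these 3 lines, and the log2 fold changes were 8.17 ± 0.10, 7.36 ± 0.12 and 8.99 ± 0.16. The neutrophil collagenase MMP8 rose from 25.0 ± 1.53 to 1409.6 ± 63.5 CPM, and the gelatinase MMP2 from 292 ± 9.60 to 523 ± 20.3 CPM. Membrane-bound MMP14 and MMP16 fell, from 533 ± 5.17 to 411 ± 9.98 CPM and from 247 ± 5.83 to 103 ± 4.09 CPM, while MMP9 stayed low in both groups (0.159 and 0.176 CPM) and was not called. Of 20 metalloproteinase and TIMP genes tested, 11 rose and 4 fell, against 30.6% and 34.5% of all genes. On total counts 8 were higher and 7 lower.

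The aggrecanases rose as well. ADAMTS4 was at 93.0, 87.3, 96.9 and 91.5 CPM with IL-1 and 0.363, 0.449, 0.582 and 0.0635 CPM with DMSO, and ADAMTS5 at 230.5, 229.7, 241 and 246 CPM and 1.78, 2.42, 1.57 and 1.27 CPM. For both, every IL-1 library was higher (log2 7.97 ± 0.21 and 7.04 ± 0.17). ADAMTS1 rose from 7.99 ± 0.583 to 138 ± 3.20 CPM, and ADAMTS6 fell from 63.8 ± 4.62 to 31.0 ± 1.89 CPM. In the whole family, 9 of 17 tested genes rose and 4 fell, against 30.6% and 34.5% of all genes (7 and 4 on total counts). Among inhibitors, TIMP1 was at 441, 439.8, 448 and 459 CPM and 71.7, 60.5, 63.5 and 64.1 CPM, higher in every IL-1 library. TIMP3, an inhibitor of aggrecanases, did not pass the test (1084 ± 46.0 and 1022 ± 36.7 CPM, log2 0.085, adjusted p = 0.0802, edgeR). It was called upward with DESeq2 (adjusted p = 0.00177) and downward on total counts (log2 -0.45). TIMP4 fell from 1.17 ± 0.476 to 0.267 ± 0.115 CPM. Of 17 plasminogen activator, cathepsin and serpin genes tested, 11 rose and 2 fell (9 and 7 on total counts). PLAU (urokinase) rose from 1.17 ± 0.260 to 27.6 ± 3.12 CPM and its receptor PLAUR from 28.0 ± 0.810 to 627 ± 13.5 CPM.

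The main structural genes of cartilage matrix had small log2 fold changes on the TMM scale and larger falls on total counts (log2 -0.68 for COL2A1 and -0.72 for ACAN). COL2A1 was at 42641, 40396, 37371 and 41886 CPM with IL-1 and 44479, 45355, 47369 and 43303 CPM with DMSO. The groups did not overlap, and the highest IL-1 library lay just under the lowest DMSO library. The log2 fold change was -0.15 ± 0.053, with adjusted p = 0.0125 (edgeR) and 0.0597 (DESeq2). Without IL-1 replicate 3 the adjusted p was 0.0716 (edgeR), and without DMSO replicate 3 it was 0.0505 (edgeR). ACAN was at 16551, 15580.4, 15225 and 17069.9 CPM and 18394, 18801, 18422 and 17616 CPM, lower in every IL-1 library (log2 -0.18 ± 0.051). HAPLN1, the link protein that ties aggrecan to hyaluronan, was at 7407, 7278, 7149 and 6508 CPM and 5803, 5739.7, 6121 and 6116 CPM, higher in every IL-1 library on the TMM scale (log2 0.25) and lower on total counts (log2 -0.28). COL9A1 and COL11A2, which form heteropolymers with type II collagen, did not pass the test (log2 0.021 and 0.0072), and both were called lower on total counts.

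Among 35 collagen genes tested, 13 rose and 9 fell, near the shares over all genes (30.6% and 34.5%), with a median log2 fold change of 0.06. On total counts 2 were higher and 28 lower, against 2066 and 10345 of 16540 genes. COL3A1 was at 981, 859.7, 982 and 872 CPM with IL-1 and 276, 265, 265 and 257 CPM with DMSO, higher in every IL-1 library. COL27A1, a fibrillar collagen of cartilage, was at 282, 266, 262 and 298 CPM and 861, 937, 907 and 899 CPM, lower in every IL-1 library. COL19A1 fell from 19.7 ± 0.853 to 3.52 ± 0.282 CPM. Of 30 other matrix protein genes tested, 11 rose and 10 fell, also near those shares, and on total counts 6 were higher and 22 lower. PRG4 (lubricin) rose from 11.8 ± 1.54 to 77.0 ± 5.10 CPM and fibronectin (FN1) from 5970.4 ± 315 to 9530.2 ± 479.7 CPM. CLEC3A, a cartilage lectin, fell from 495 ± 16.5 to 124 ± 5.82 CPM, CYTL1 from 33.0 ± 2.63 to 8.52 ± 1.10 CPM and matrilin-1 (MATN1) from 3143 ± 103 to 2007 ± 60.3 CPM. Of 12 small leucine-rich proteoglycans tested, 2 rose and 2 fell, and on total counts none was higher and 7 were lower.

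Several genes that build the sulphated sugar chains of aggrecan fell. SLC26A2, the sulphate transporter, was at 256, 256, 243 and 277 CPM with IL-1 and 960.2, 982, 970.3 and 934 CPM with DMSO. SLC35D1, which carries nucleotide sugars into the secretory pathway for chondroitin sulphate, was at 47.7, 49.1, 46.2 and 47.3 CPM and 228, 243, 237 and 234 CPM. CSGALNACT1, which starts the chondroitin chain, was at 51.1, 51.6, 49.9 and 49.4 CPM and 197, 199, 193 and 188 CPM. All 3 were lower in every IL-1 library by a wide margin, with log2 fold changes of -1.90 ± 0.051, -2.31 ± 0.046 and -1.95 ± 0.045. The chondroitin sulphotransferases CHST11 and CHST12 fell from 263 ± 6.37 to 72.0 ± 4.26 CPM and from 70.7 ± 4.15 to 16.8 ± 1.78 CPM. PAPSS2, which makes the sulphate donor, fell from 630.4 ± 19.2 to 298 ± 7.18 CPM, and XYLT1, which attaches the first sugar to the core protein, from 1749 ± 69.2 to 966 ± 65.9 CPM. The next linkage enzymes B4GALT7, B3GALT6 and B3GAT3 fell by 0.42, 0.83 and 0.67 on the log2 scale.

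Other members of the same list rose. TNFAIP6, a hyaluronan-binding protein of inflammation, was at 285, 279, 270.4 and 267 CPM with IL-1 and 5.74, 4.99, 4.19 and 5.59 CPM with DMSO. CD44, the hyaluronan receptor, was at 619.7, 589, 578 and 608 CPM and 21.5, 20.8, 20.3 and 22.3 CPM. Groups were far apart for both (log2 5.75 ± 0.089 and 4.82 ± 0.059). CHST15, a sulphotransferase, rose from 15.1 ± 1.70 to 55.3 ± 2.34 CPM, CHSY1, a chondroitin synthase, from 93.5 ± 5.74 to 215 ± 9.30 CPM and DSE, the dermatan sulphate epimerase, from 69.9 ± 3.13 to 293 ± 9.13 CPM. In all, 10 of 30 tested genes rose and 15 fell, against 30.6% and 34.5% of all genes. On total counts 7 were higher and 21 lower. HAS2 has no line in the table. Among the collagen-processing enzymes, LOXL4 fell from 152 ± 8.95 to 30.1 ± 1.00 CPM, and 7 of 19 rose and 8 fell (3 and 16 on total counts).

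**Figure D3:**
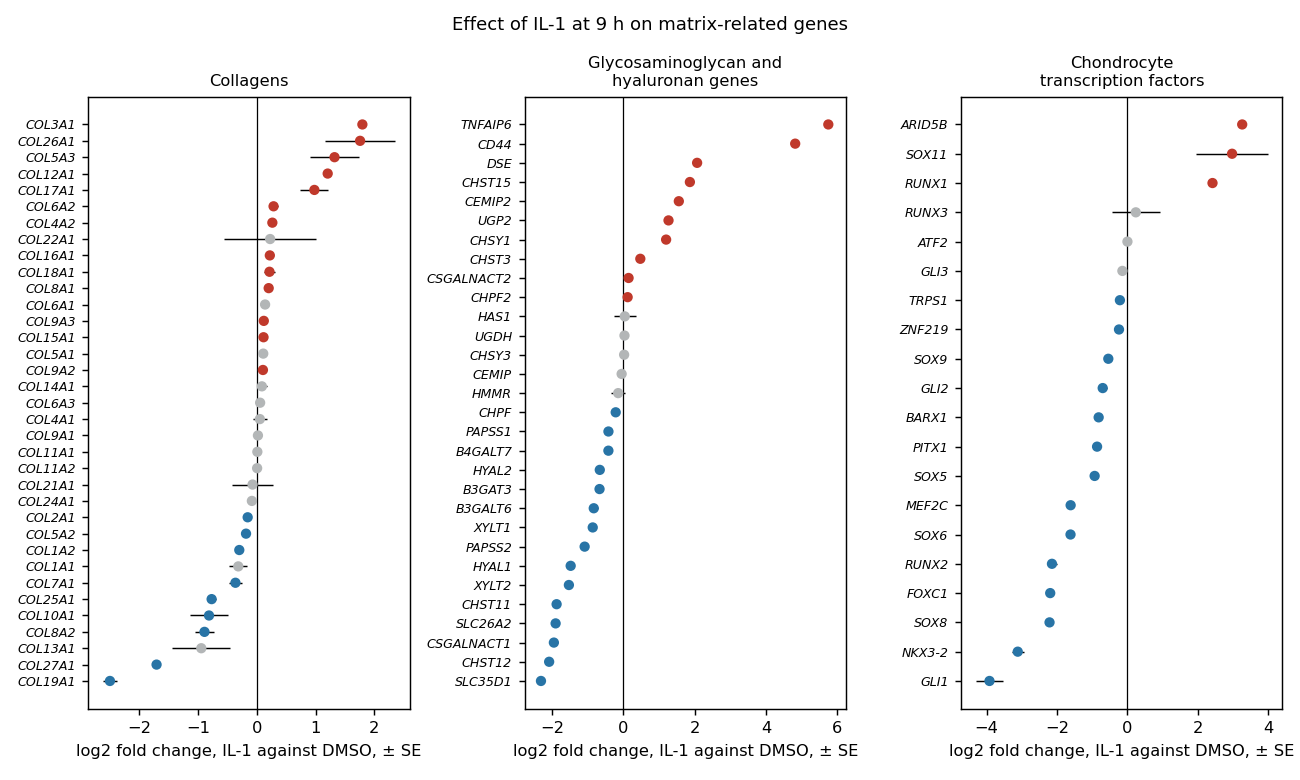
Log2 fold change of IL-1 against DMSO at 9 h for each tested collagen, glycosaminoglycan or hyaluronan gene and chondrocyte transcription factor, with bars for 1 SE; red was called higher, blue lower and grey not called. COL2A1 (-0.15) lies near 0, while SLC35D1 (-2.31) and CD44 (4.82) mark opposite ends of the middle panel.

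Most transcription factors of the chondrocyte lineage fell: 14 of 20 tested were lower and 3 higher, against 34.5% and 30.6% of all genes, with a median log2 fold change of -0.76, and on total counts 16 were lower and 3 higher. SOX6 was at 89.1, 84.5, 89.2 and 85.2 CPM with IL-1 and 265, 276, 262 and 262 CPM with DMSO, and SOX5 at 84.0, 81.3, 86.5 and 80.9 CPM and 167, 161, 154 and 152 CPM. SOX8 was at 20.1, 19.9, 19.8 and 21.3 CPM and 95.8, 98.4, 87.5 and 94.3 CPM. All IL-1 libraries were lower for these 3 genes (log2 -1.61 ± 0.053, -0.93 ± 0.049 and -2.21 ± 0.068). SOX9, the master regulator of the lineage, was at 387, 349, 346 and 364 CPM and 514, 541, 517 and 532 CPM, also lower in every IL-1 library but by less (log2 -0.54 ± 0.050). NKX3-2 fell from 10.00 ± 1.55 to 1.17 ± 0.528 CPM, RUNX2, which drives hypertrophy, from 11.3 ± 0.774 to 2.56 ± 0.655 CPM and GLI1, a target of hedgehog signalling, from 2.82 ± 0.240 to 0.171 ± 0.116 CPM. The 3 that rose were ARID5B (log2 3.26), RUNX1 (log2 2.42) and SOX11 (log2 2.98, from 0.0557 CPM).

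WWP2, a ubiquitin ligase whose gene hosts the cartilage microRNA miR-140, was at 272, 276, 258 and 285 CPM with IL-1 and 2813, 2742, 2709 and 2637 CPM with DMSO. The line MIR140 (chromosome 6, 17077530 to 17077599, Sscrofa11.1) lies within the span RefSeq gives for WWP2 (17068780 to 17227982), and it was at 0.165, 0.174, 0.179 and 0.202 CPM and 5.41, 4.56, 4.15 and 3.56 CPM. Both were lower in every IL-1 library, with log2 fold changes of -3.32 ± 0.051 and -4.57 ± 0.30. The lines ssc-let-7c and ssc-mir-214 fell as well, with 6 and 10 counts over the IL-1 group against 170 and 177 over the DMSO group. The labels name no size selection for mature microRNAs, and reads on such lines cannot be told apart from reads of an overlapping transcript.

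Genes that mark hypertrophy and the growth plate moved in both directions. IHH, the hedgehog ligand of prehypertrophic cells, was at 0.728, 0.447, 0.465 and 0.565 CPM with IL-1 and 7.05, 5.66, 5.90 and 8.16 CPM with DMSO. PTHLH, which restrains hypertrophy, was at 36.9, 38.6, 37.1 and 36.9 CPM and 4.18, 3.56, 3.68 and 4.03 CPM. IHH was lower and PTHLH higher in every IL-1 library (log2 -3.60 ± 0.20 and 3.28 ± 0.13). The receptor PTH1R fell from 26.6 ± 1.04 to 7.81 ± 0.489 CPM, and ANKH, a pyrophosphate transporter, from 286 ± 9.27 to 54.4 ± 2.88 CPM. SPP1 (osteopontin) rose from 1299 ± 53.0 to 9518 ± 175 CPM and VEGFA from 133 ± 3.70 to 598 ± 43.7 CPM. Of 12 tested, 3 rose and 7 fell, against 30.6% and 34.5% of all genes (3 and 8 on total counts).

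Among TGF-beta and BMP genes, 15 of 41 tested rose and 22 fell, against 30.6% and 34.5% of all genes, and on total counts 9 were higher and 29 lower. BMP2 was at 1536, 1519, 1378 and 1520.1 CPM with IL-1 and 48.4, 48.8, 49.1 and 46.8 CPM with DMSO, and GREM1, a secreted antagonist of BMPs, at 136, 138, 152 and 141 CPM and 1704, 2024, 1882 and 1949 CPM. BMP2 was higher and GREM1 lower in every IL-1 library (log2 4.95 ± 0.078 and -3.74 ± 0.075). GDF5, a joint-forming BMP family ligand, was at 6.81, 8.10, 6.30 and 6.50 CPM and 74.5, 59.5, 68.7 and 65.2 CPM, lower in every IL-1 library. The BMP targets ID1 and ID3 fell by 1.40 and 1.82 on the log2 scale. The receptor TGFBR2 fell from 354 ± 18.2 to 139.7 ± 4.05 CPM and the ligand TGFB3 from 65.6 ± 3.34 to 24.5 ± 2.29 CPM.

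Growth factor genes rose for 16 of 27 tested and fell for 7, against 30.6% and 34.5% of all genes (13 and 11 on total counts). EREG, a ligand of the EGF receptor, was at 137, 132, 125 and 119.8 CPM with IL-1 and 0.363, 0.523, 0.801 and 0.762 CPM with DMSO, and every IL-1 library was higher (log2 7.71 ± 0.17). AREG, another EGF receptor ligand, rose from 0.850 ± 0.304 to 23.6 ± 1.60 CPM. The receptors FGFR2 and FGFR3 fell, from 285 ± 2.34 to 139 ± 6.15 CPM and from 768 ± 26.5 to 291 ± 8.14 CPM, and the ligand FGF2 from 106 ± 6.55 to 28.1 ± 1.57 CPM.

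Antioxidant and iron genes rose for 21 of 25 tested and fell for 3 (SOD3, CAT and SLC40A1), against 30.6% and 34.5% of all genes. SOD2 was at 39740.0, 38586, 39222 and 37137 CPM with IL-1 and 1099, 1099, 1166 and 1106 CPM with DMSO. HMOX1, heme oxygenase-1, was at 3090.3, 3042, 2723 and 2944 CPM and 94.3, 86.6, 95.7 and 104.8 CPM. The IL-1 libraries were far above the DMSO libraries for both (log2 5.11 ± 0.062 and 4.95 ± 0.072). GCLM, of glutathione synthesis, rose from 62.5 ± 5.28 to 348 ± 13.8 CPM and TXNRD1, thioredoxin reductase, from 131 ± 7.70 to 1377 ± 35.8 CPM. The iron importer SLC11A2 rose from 82.0 ± 2.64 to 852 ± 15.4 CPM, the ferritin chain FTH1 from 1021 ± 72.9 to 4052 ± 45.3 CPM, while the iron exporter SLC40A1 (ferroportin) fell from 37.5 ± 1.51 to 18.7 ± 2.77 CPM. The zinc and iron importer SLC39A14, whose line also covers PPP3CC, rose from 290.5 ± 9.63 to 2939 ± 71.3 CPM. On total counts 16 of the 25 were higher and 6 lower.

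Glycolysis and hypoxia genes rose for 20 of 28 tested and fell for 2 (GPI and HIF1A), against 30.6% and 34.5% of all genes. LDHA, lactate dehydrogenase, was at 6106, 6024, 6064 and 5732 CPM with IL-1 and 414, 389, 406 and 397 CPM with DMSO, and the glucose transporter SLC2A3 at 579, 550.2, 543 and 508 CPM and 28.9, 27.4, 32.7 and 30.7 CPM. Every IL-1 library was higher for both (log2 3.90 ± 0.051 and 4.19 ± 0.062). HK2, which phosphorylates glucose, rose from 73.3 ± 5.68 to 681 ± 27.1 CPM. Some other glycolytic enzymes changed little, among them ENO1 (log2 0.27), TPI1 (log2 0.40) and PKM, which was not called (log2 0.054) except upward with DESeq2 (adjusted p = 0.00994) and with its size factors in edgeR (adjusted p = 0.0379), and these 3 turned to falls on total counts (log2 -0.27, -0.13 and -0.48). On total counts 13 of the 28 were higher and 13 lower. In lipid metabolism, ACSL1, which activates fatty acids, was at 13621, 13593, 13729 and 13428 CPM and 246, 259.9, 252 and 234 CPM, apart in every library. Of 24 cholesterol synthesis genes 19 rose and 3 fell (15 and 7 on total counts). SREBF1, a transcription factor of lipid synthesis genes, fell from 76.6 ± 7.16 to 26.0 ± 0.905 CPM.

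Among 29 mechanosensitive and calcium channel genes tested, 12 rose and 12 fell, against 30.6% and 34.5% of all genes, and 9 and 14 on total counts. TRPC6, a calcium-permeable channel, had 4, 4, 0 and 2 counts in the DMSO libraries and 443, 569, 344 and 646 with IL-1. The gap junction gene GJA1 was at 1891, 1818, 1891 and 1774 CPM with IL-1 and 130.4, 138, 139 and 145 CPM with DMSO, and PIEZO2 at 121, 111, 111 and 124 CPM and 32.9, 32.7, 32.1 and 31.1 CPM. All 3 were higher in every IL-1 library (GJA1 log2 3.74 ± 0.056, PIEZO2 log2 1.86 ± 0.058). PIEZO1 was at 159, 157, 145 and 179 CPM and 95.3, 97.0, 91.6 and 91.3 CPM and TRPV4 at 240.0, 241, 224 and 252 CPM and 631, 597, 619 and 564 CPM, the first higher and the other lower in each IL-1 library. The store-operated channel gene ORAI1 rose and its calcium sensor STIM1 fell (log2 0.90 and -0.49). TRPV2 and TRPM4 fell, by 1.60 and 1.48 on the log2 scale.

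The effect of IL-1 at 9 h was set against its effect at 3 h, each against its own DMSO libraries, in 1 model of 48 libraries. At 3 h, 5341 of 16562 genes were called (32.2%), 3064 higher and 2277 lower with IL-1, and on total counts 1505 and 5095. Of 17447 genes tested for a change of the effect, 6775 were called (38.8%), 3223 with a higher and 3552 with a lower effect at 9 h. On total counts these were 1269 and 7666. Among 16077 genes tested at both times, 2453 were called higher at both (15.3%) and 1837 lower at both (11.4%). Without a call at 3 h, 2332 were higher (14.5%) and 3665 lower (22.8%) at 9 h. The difference between times itself was called for 1437 of these 2332 genes and 2059 of these 3665. A missing call at 3 h alone therefore does not show a different effect. A further 153 were called higher at 3 h and lower at 9 h, and 145 the reverse.

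Several early genes were already far above DMSO at 3 h. ZC3H12A was at 616 ± 39.1 CPM with IL-1 and 14.8 ± 1.62 CPM with DMSO at 3 h, and the difference of its log2 fold changes was -0.059 ± 0.10, not called. NFKBIZ (difference -0.13), CCL2 (-0.10), ADAMTS4 (0.20) and CSF1 (-0.011) were not called either, and these p-values do not show that the effects were equal. Effects were lower at 9 h for CEBPD (from log2 5.04 to 4.01), PLAU (from 6.32 to 4.58), IRF1 (from 4.16 to 3.30) and TNFAIP3 (from 4.49 to 3.92). Of 25 NF-kB genes, 12 had a higher and 5 a lower effect at 9 h, against 18.5% and 20.4% of all genes.

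For MMP13, MMP8, HMOX1, C3 and HK2 the effect was higher at 9 h. MMP13 was at 175 ± 14.7 CPM with IL-1 and 12.1 ± 1.30 CPM with DMSO at 3 h, and its log2 fold change was larger by 4.36 ± 0.17 at 9 h. MMP8 was at 104 ± 6.93 CPM and 31.3 ± 4.71 CPM at 3 h (difference 4.12). HMOX1 differed by 4.21, and C3 by 3.01. HK2 was at 151 ± 6.67 CPM and 171 ± 13.5 CPM at 3 h, lower with IL-1 (log2 -0.19, adjusted p = 0.0187, edgeR), and higher at 9 h. Of 29 glycolysis and hypoxia genes, 21 had a higher and 1 a lower effect at 9 h, of 26 antioxidant and iron genes 20 and 2, and of 24 cholesterol genes 19 and 1, against 18.5% and 20.4% of all genes. On the other side, SLC26A2 fell by 0.47 on the log2 scale at 3 h and 1.90 at 9 h, GREM1 by 0.44 and 3.74, and IHH by 0.81 and 3.60. SOX8 and ID3 were already lower at 3 h (log2 -1.92 and -1.95), and their differences were not called (-0.25 and 0.17).

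The largest gains from 3 h to 9 h among genes with at least 1 CPM were those of CERS3, SERPINA3-2, MOCOS, TMEM45B, CCR8 and MMP12. SERPINA3-2, a serpin of the acute phase family, was at 1.09 ± 0.0566 CPM with IL-1 at 3 h and 50.3 ± 2.76 CPM at 9 h. MOCOS, a molybdenum cofactor sulphurase, was not called at 3 h (log2 0.77) and was at 11.7, 15.4, 15.6 and 13.9 CPM with IL-1 and 0.145, 0.199, 0.291 and 0.222 CPM with DMSO at 9 h, with no overlap. The calls for CERS3 and CCR8 rest on few counts and were lost without DMSO replicate 4 at 3 h (adjusted p = 1 and 0.127, edgeR). That for CCR8, a chemokine receptor, was also lost without DMSO replicate 2 at 9 h (adjusted p = 0.0508, edgeR).

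The largest losses were those of SELE, LPAR4, CDCA7, FOXA2, PI15 and ssc-let-7c. SELE, the adhesion molecule E-selectin, had 190, 314, 234 and 144 counts in the IL-1 libraries at 3 h and none with DMSO, at least 199-fold higher per library total. At 9 h it had 7, 13, 5 and 21 counts with IL-1 and 0, 0, 0 and 3 with DMSO. Per library total this was 9.08-fold higher with IL-1, with a counting interval of 2.92 to 45.6. SELE was too low to be tested at 9 h. Its call in the comparison of times was lost without DMSO replicate 4 at 9 h (adjusted p = 1, edgeR). FOXA2, a forkhead transcription factor, was at 11.13 ± 0.601 CPM with IL-1 and 1.77 ± 0.600 CPM with DMSO at 3 h, and at 0.695, 0.695, 1.07 and 0.525 CPM and 2.22, 1.12, 1.71 and 2.32 CPM at 9 h. It was thus higher with IL-1 at 3 h and lower at 9 h.

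**Figure D4:**
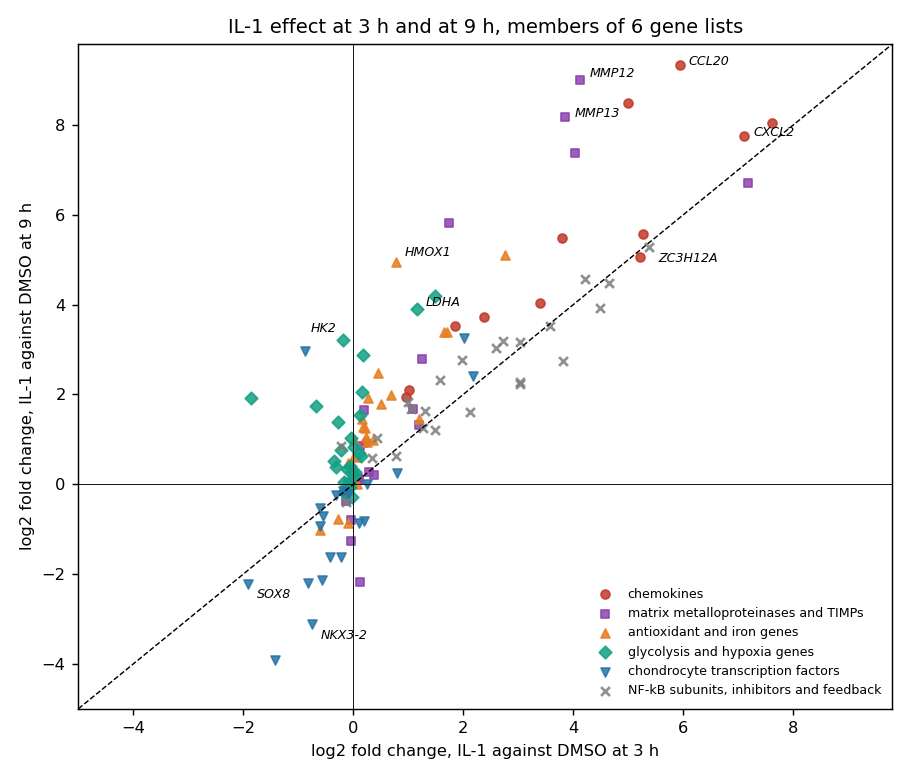
Log2 fold change of IL-1 against DMSO at 9 h (vertical) against that at 3 h (horizontal) for members of 6 gene lists, 1 point a gene; the dashed line marks equal effects and each time has its own DMSO libraries. Chemokines such as CCL20, proteases such as MMP13 and glycolysis genes such as HK2 lie above the line, and ZC3H12A lies close to it.

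IL-1 was also compared directly with GSK101 at 9 h, without use of the DMSO libraries. Of 16540 genes, 8900 were called (53.8%), 4359 higher with IL-1 and 4541 higher with GSK101. On total counts these were 2699 and 6697. The largest differences toward IL-1 were those of TNF, IL6, IDO2, CCL20, CXCL10 and ATP12A. TNF was at 75.7 ± 1.34 CPM with IL-1, 0.167 ± 0.171 CPM with GSK101 and 0.242 ± 0.0763 CPM with DMSO. CXCL10 had 2 counts over the 4 GSK101 libraries and 1335 over the IL-1 libraries, a ratio of 364 per library total with a counting interval of 100.7 to 3013. IDO2 had no count with GSK101 and 38, 79, 36 and 70 with IL-1, at least 40.6-fold higher per library total. Toward GSK101 the largest were FOXJ1, CCN1, KCNN4, INHBA, PSTPIP1 and GPR39. CCN1, a matricellular target of YAP, was at 33.9 ± 1.84 CPM with IL-1, 1633 ± 90.0 CPM with GSK101 and 157 ± 8.91 CPM with DMSO. INHBA, the activin A subunit, was at 9.78 ± 1.53 CPM, 384 ± 14.8 CPM and 4.29 ± 1.01 CPM. KCNN4, a calcium-activated potassium channel, and FOXJ1, a regulator of cilia genes, were at 50.3 ± 1.15 and 24.7 ± 1.73 CPM with GSK101, and neither was called between IL-1 and DMSO.

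Of 13 chemokines 12 were higher with IL-1 and CXCL14 was lower, and of 25 NF-kB genes 22 were higher and none lower, against 26.4% and 27.5% of all genes. NOS2 was at 9531 ± 145 CPM with IL-1 and 39.6 ± 5.56 CPM with GSK101, and MMP13 at 2975 ± 127 and 42.1 ± 3.29 CPM. Also higher with IL-1, by less, were PTGS2 (204 ± 10.9 and 69.9 ± 3.21 CPM) and CD44 (599 ± 18.7 and 315 ± 8.69 CPM). SPP1 was higher with GSK101 (11978 ± 229 CPM) than with IL-1 (9518 ± 175 CPM). GDF5 and CYTL1 were at 180.3 ± 10.8 and 68.5 ± 3.03 CPM with GSK101, above the DMSO levels, and at 6.93 ± 0.808 and 8.52 ± 1.10 CPM with IL-1. SLC26A2 was at 258 ± 14.2 CPM with IL-1 and 344 ± 9.81 CPM with GSK101, below DMSO in both (log2 difference -0.41 ± 0.050). PTH1R was at 7.81 ± 0.489 and 7.93 ± 0.463 CPM and was not called (log2 difference -0.022 ± 0.077). The IL-1 receptor gene IL1R1 was at 45.5 ± 3.72 CPM with GSK101 and 11.9 ± 0.668 CPM with IL-1, and the decoy IL1R2 at 28.7 ± 1.96 and 1.23 ± 0.237 CPM.

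**Figure D5:**
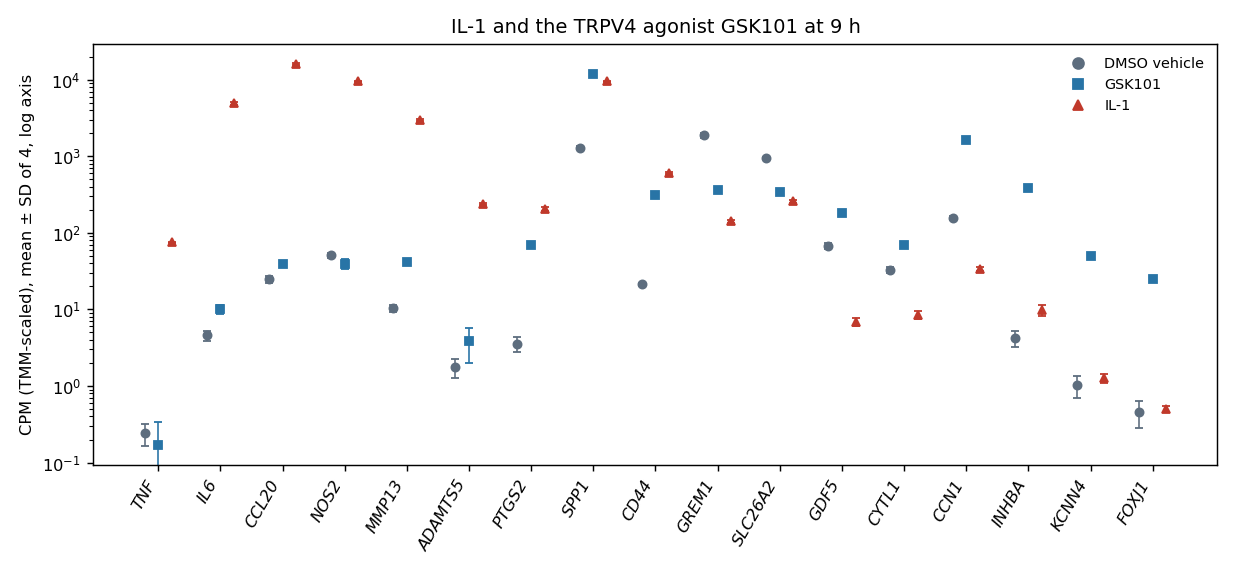
Mean CPM (TMM-scaled, log axis) of 17 genes at 9 h with DMSO (grey circles), GSK101 (blue squares) and IL-1 (red triangles), with bars for 1 SD of 4 libraries; heights are not comparable between genes. TNF, CCL20 and NOS2 are highest with IL-1, and CCN1, KCNN4 and FOXJ1 with GSK101.

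The labelled cell type was checked against its markers. Counts of markers called are to be read against 30.6% of all genes higher and 34.5% lower. Those on total counts are to be read against 2066 and 10345 of 16540 genes. All 10 chondrocyte markers were tested, 2 rose and 3 fell (none and 10 on total counts), and their summed level was 76160 to 84550 CPM with IL-1 and 83870 to 88780 CPM with DMSO. Leukocyte markers summed to 9.77 to 12.0 CPM with IL-1 and 12.8 to 15.2 CPM with DMSO. Of the 14 with a line, 6 were tested, CD68 fell and none rose. ITGAM had 741 counts over the 4 IL-1 libraries and 762 over the 4 DMSO libraries. In the same order CD79A had 352 and 214, CD68 240 and 335, and CSF1R 185 and 237. PTPRC, the common leukocyte antigen, had 11 and 13, and CD163 had 10 and 6. None of the 14 was at 0 in all 8 libraries. Fibroblast and synovial markers summed to 1257 to 1386 CPM with IL-1 and 621.8 to 682 CPM with DMSO, and 3 of 9 tested rose and 5 fell (2 and 7 on total counts), among them PDPN and COL3A1 upward and PDGFRB and THY1 downward (log2 1.99, 1.80, -1.21 and -0.34). Most of the rise in this sum lay on COL3A1, whose CPM are given above. The part of these markers in the results was not tested. Endothelial and mural markers summed to 11.8 to 13.4 CPM and 8.92 to 11.7 CPM (3 of 8 tested rose and 1 fell), and adipocyte and erythroid markers to 48.7 to 50.7 CPM and 64.6 to 71.8 CPM (none of 4 rose and 2 fell).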

How the data were processed

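The deposited table holds whole-number counts per gene, not normalized, for 120 libraries. Per the submitters' processing notes the tools were Trim Galore, STAR and HTSeq with the build Sscrofa11.1, while the sources used here give no version, strand setting or annotation release. The labels name polyA RNA while the extraction protocol describes removal of ribosomal RNA. Of 32388 lines, 481 repeats were removed. Symbols came from the table for 16681 of 31907 identifiers, and from the gene name and RefSeq tables for 822 and 762. Lines that cover several genes (MMP3, IFIT1, P3H1, HPS5, SLC39A14, RAD54B, VWF and others) are uncertain, as are overlapping genes.

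Counts were analysed with edgeR 4.0.16 in R 4.3.3: filterByExpr (minimum count 10), TMM scaling, and the quasi-likelihood test in a model of 6 groups and 24 libraries at 9 h, or 48 libraries for the comparison of times, with Benjamini-Hochberg adjustment and a threshold of 0.05. SE is the absolute log2 fold change divided by the square root of F. DESeq2 1.42.0 was an alternative. Ratios of genes with few counts used exact binomial intervals (95%) and a floor of 3 counts over the group, which cover counting error only. With even numbers in excess among low counts, counts may not be independent and these intervals may be too narrow.

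Genes were named by rules: the 12 largest rises and falls with a symbol, at least 1 CPM and groups that do not overlap; members of 38 gene lists; and the 6 largest differences each way between times and between IL-1 and GSK101. The genes between IL-1 and GSK101 were picked under the same conditions of symbol, level and groups that do not overlap. Their lack of overlap adds no support either. The genes between times needed a symbol and at least 1 CPM in a group, with no condition on overlap. Members and lists were chosen with earlier results of these data known, so no list was tested as a set. Replicate numbers were not used to pair the samples, except in the alternative with a replicate block. The scripts were run on simulated counts with known changes in few genes. That run does not test the scaling in data where most genes were called. Alternatives were other scalings, filters, tools, models, left-out replicates and thinned libraries. No sequences are printed.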

Additional observations from a re-analysis of the deposited data

Results flagged for a closer look

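In 26 of 476 groups of 4 libraries checked, 1 library lay far from the other 3 (Dixon test, 95%), where chance gives about 1 group in 20. Values here are the CPM of that library at 9 h. DMSO replicate 1 stood apart for LPAR4 (2.83), CCR8 (0.0727), IDO2 (0.218), TNIP3 (0.0727), DDAH1 (32.2) and ACTB (1465). DMSO replicate 2 stood apart for CXCL10 (0.0997) and RELB (43.2). DMSO replicate 3 stood apart for SOD2 (1166). DMSO replicate 4 stood apart for MX1 (16.9) and ADAMTS6 (56.9). IL-1 replicate 1 stood apart for SIGIRR (0.562), JUNB (593), BHLHE41 (197), IKBKG (31.8), MYC (19.8), SLC40A1 (22.8) and NFIL3 (108). IL-1 replicate 2 stood apart for GPR39 (0.199) and PTHLH (38.6). IL-1 replicate 3 stood apart for BMP2 (1378). IL-1 replicate 4 stood apart for CSF2 (3.17), FIBIN (19.2), NFKBIA (1206), GLI1 (0.343) and GCLM (328). For CCR8, IDO2, TNIP3, CXCL10 and GPR39 only the flagged library of the group had any count. Such a library is flagged however few its counts, and these were few. The cause was not tested.

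The effect of IL-1 differed between 9 h and 3 h, by the test of the difference itself in edgeR. The difference of log2 fold changes, 9 h minus 3 h, was positive for CERS3 (6.91), SERPINA3-2 (5.55), MOCOS (5.26), TMEM45B (5.00), CCR8 (4.93), MMP12 (4.91), HK2 (3.44) and CHSY1 (1.39). It was negative for SELE (-7.39), LPAR4 (-5.21), CDCA7 (-4.71), FOXA2 (-3.92), PI15 (-3.68), ssc-let-7c (-3.67) and TGFB3 (-1.64). CERS3, CCR8 and SELE rest on few counts, and their calls were lost in thinned libraries (adjusted p = 0.119, 0.12 and 1, edgeR).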

How the results depend on the processing

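Among 16540 genes at 9 h, 10764 were called. The count was 10731 with DESeq2 size factors in edgeR, 10871 with DESeq2, 10623 without a filter, 9992 with at least 1 CPM in 4 libraries, 10970 with the compared groups alone, 9707 with protein-coding genes alone and 10400 with libraries thinned to the smallest total. It was 12411 on total counts, 8030 with edgeR's glmTreat against a 1.2-fold change and 3919 when a change of at least 2-fold was asked. Leaving out 1 library at a time gave 10246 to 10406 genes at 9 h, 4671 to 5308 at 3 h, 6409 to 6643 for the comparison of times and 8419 to 8635 against GSK101. With the replicate block the counts were 10698 at 9 h, 5261 at 3 h, 6739 for the comparison of times and 8805 against GSK101. The deviations of same-numbered IL-1 and DMSO libraries had correlations of -0.047, 0.036, -0.0019 and -0.046. Such values show no pairing and cannot exclude it. Of 262 log2 fold changes of named genes, 234 kept their call and direction under all alternatives in which they were tested, and 28 did not. The glmTreat and 2-fold alternatives were applied only to the number of genes called, not to named genes. On total counts the direction turned for FOXJ1 (-0.40), KCNN4 (-0.22), LCN2 (-0.16), MX1 (-0.45), TIMP3 (-0.45), HAPLN1 (-0.28), COL9A1 (-0.51) and COL11A2 (-0.52) on the log2 scale, and also for ENO1 (-0.27), IL6R (-0.37), PKM (-0.48) and TPI1 (-0.13). Genes not called also changed sign with other settings: COL11A2 without a filter (-0.00023) and with protein-coding genes alone (-0.013); GBP1 (0.016 and 0.016) and TNFSF13B (0.032 and 0.030) with DESeq2 size factors and DESeq2; TNFSF13B with the compared groups alone (0.016); MMP9 (0.25), OAS1 (0.0013) and TNFSF13B (0.054) with the replicate block; and OAS1 in thinned libraries (0.079). With 1 library left out at a time, values ran from -0.021 to 0.032 for COL11A2, -0.0036 to 0.037 for COL9A1, -0.019 to 0.40 for FOXJ1, -0.087 to 0.020 for GBP1, -0.51 to 1.29 for MMP9, -0.041 to 0.17 for MX1, -0.32 to 0.15 for OAS1 and -0.40 to 0.28 for TNFSF13B. The causes were not tested. The scalings with and without TMM factors differ by construction, and which one is nearer to RNA per cell was not tested. Depth limits genes such as CERS3, CCR8, SELE and IDO2, whose DMSO group at 9 h had 0 to 6 counts in all.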

Other observations

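Several other gene groups were counted in the same comparison of IL-1 with DMSO at 9 h, as values. Over all genes 30.6% rose and 34.5% fell, and on total counts 2066 of 16540 genes were higher and 10345 lower. Of 19 circadian clock genes tested, 8 rose and 9 fell. NR1D1, the repressor REV-ERB alpha, was at 2.15, 1.19, 0.967 and 1.74 CPM with IL-1 and 7.09, 8.60, 8.74 and 8.39 CPM with DMSO, lower in every IL-1 library (log2 -2.43 ± 0.21, adjusted p = 7.02e-12, edgeR). DBP, a clock output factor, fell from 7.81 ± 0.738 to 1.97 ± 0.145 CPM (SD, n = 4), while the repressors BHLHE41 and NFIL3 rose from 49.9 ± 2.76 to 179 ± 12.0 and from 23.97 ± 1.58 to 99.9 ± 5.54 CPM. Of 27 WNT genes, 9 rose and 11 fell, near the shares over all genes. The ligand WNT7B rose from 0.214 ± 0.151 to 2.48 ± 0.639 CPM, and RSPO3, which strengthens WNT signals, fell from 46.1 ± 5.01 to 9.41 ± 1.21 CPM. On total counts 4 clock genes were higher and 12 lower, and 3 WNT genes higher and 14 lower.

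Of 30 cell cycle genes, 9 rose and 13 fell, near the 30.6% and 34.5% of all genes, and on total counts 5 were higher and 19 lower. The inhibitor CDKN2B was at 20.0, 17.1, 18.2 and 18.1 CPM with IL-1 and 2.03, 2.24, 2.66 and 2.10 CPM with DMSO, and cyclin D1 (CCND1) at 7.61, 4.94, 5.41 and 6.62 CPM and 22.8, 20.4, 15.9 and 18.6 CPM. CDKN2B was higher and CCND1 lower in every IL-1 library. Among apoptosis and survival genes 12 of 17 rose and 2 fell, with PMAIP1, a BH3-only protein, rising from 1.51 ± 0.347 to 34.7 ± 3.28 CPM and the death receptor FAS from 11.7 ± 0.630 to 81.8 ± 2.70 CPM. Of 24 unfolded protein and integrated stress response genes, 17 rose and 4 fell. PHGDH, the first enzyme of serine synthesis, fell from 118 ± 5.49 to 16.1 ± 1.23 CPM while ATF4 rose from 901 ± 44.8 to 1939.9 ± 60.7 CPM. On total counts 9 apoptosis genes were higher and 8 lower, and 7 stress response genes higher and 13 lower.

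Of 24 actin, SRF and YAP-TAZ genes, 6 rose and 10 fell, and on total counts 2 were higher and 19 lower. The co-activators went in opposite directions on the TMM scale, YAP1 from 93.2 ± 2.25 to 252 ± 4.35 CPM and WWTR1 (TAZ) from 288 ± 7.71 to 79.1 ± 3.36 CPM. Of 12 metallothionein and zinc transport genes, 8 rose and 1 fell. MT1A, a metallothionein, rose from 3.87 ± 0.428 to 57.9 ± 2.67 CPM, and SLC30A2, a zinc exporter, fell from 1.39 ± 0.214 to 0.0916 ± 0.0842 CPM. On total counts 4 were higher and 6 lower.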
